A study of Mus musculus with 4 samples.

Results

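Nuclear RNA over the Nanog gene and its neighbour Slc2a3 was compared between mouse 46c embryonic stem cells (ESC) and neural progenitor cells (NPC) obtained from the same line in the N2B27 differentiation protocol. The probes were chosen by position: every non-control probe of the tiling array that lies within chr6:122600001-122800000 (mm9) was taken, which gave 817 of 48316 probes. These probes end at 122712464, so the Slc2a3 interval is covered only up to there and the sequence beyond it was not measured. The Nanog interval, 122657000-122665000, held 63 probes, the gap of 11.999 kb between the genes held 63, the Slc2a3 interval, 122677000-122715000, held 291, and the flank upstream of Nanog held 400. Both gene intervals are approximate positions given with the locus; no mm9 annotation was used here, so exons, introns and untranslated regions were not assigned.

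The study has 2 ESC arrays (ESC 1 and ESC 2) and 2 NPC arrays (NPC 1 and NPC 2). Both groups carry the 46c background, an ESC line with a reporter of neural commitment, and neither received a further treatment named in the labels. RNA came from a nuclear chromatin preparation made without RNase, was amplified and labelled without regard to strand, and was read in 1 colour, so that transcripts of either strand give the same signal. Whether replicate arrays stem from different cultures is not stated, and p-values therefore describe the spread among these 4 arrays, which may be technical. In bulk samples, fewer cells that express a gene and less RNA per cell cannot be told apart, and the labels give no share of cells that became NPC.

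Nanog encodes a homeodomain transcription factor of the pluripotency network of ESC. It is transcribed in undifferentiated cells together with Pou5f1 and Sox2, whose products bind its promoter, and it is known to be shut down when ESC commit to a lineage. Slc2a3 encodes the facilitative glucose transporter GLUT3, which is used by neurons and by early embryonic cells. In the RefSeq gene order of GRCm38, Slc2a3 is the next gene after Nanog, and the pseudogenes Gm8460, Gm10420 and Gm10224 precede Nanog, with Dppa3, another gene of the early embryo, further away. RefSeq also lists 2 Nanog pseudogenes on other chromosomes, 12 and X. The files hold no probe sequences, so matches of probes to such copies were not examined.

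The Nanog promoter is shown because its gene is the ESC marker on which the comparison turns. The 250 bases before the most upstream of the 2 Nanog starts in the RefSeq promoter table lie at chr6:122707239-122707488 on the + strand of GRCm38.p6. This is another build than that of the probes, and the coordinates were not set against them. Capitals mark the core of the octamer bound by Pou5f1 (TTTGCAT) and the Sox site (ACAATG), both searched on either strand.
Nanog promoter: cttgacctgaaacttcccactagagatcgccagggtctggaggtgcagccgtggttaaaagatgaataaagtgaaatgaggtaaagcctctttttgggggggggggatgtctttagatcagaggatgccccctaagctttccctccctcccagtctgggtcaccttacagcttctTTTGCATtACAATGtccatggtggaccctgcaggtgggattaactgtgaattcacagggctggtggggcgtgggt
The octamer core spans bases 75 to 69 before the start, and the Sox site spans bases 67 to 62, with 1 base between them. Among 32851 promoter windows of the same length, 4.12% hold the octamer core and 10.7% the Sox site on either strand. The 2 motifs in this order and with this spacing occur in 2 windows, which are the overlapping windows of the 2 Nanog starts. The E-box (CACGTG) and the TATA box (TATAAA), searched in the same way, have no match in these 250 bases and occur in 6.02% and 12.4% of the windows. A match describes the letters of the window only.

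All values below are log2 intensities relative to each array's 75th percentile over the 15356 probes that were well above background on all 4 arrays, and differences are NPC minus ESC. Across the locus 64.3% and 66.2% of probes passed the well-above-background mark in ESC 1 and ESC 2, against 53.9% and 53.1% in NPC 1 and NPC 2. Over the whole array the order was the other way, with 42.5% and 44.6% in ESC and 54.1% and 54.3% in NPC. Negative control spots passed the same mark in 1.36% to 2.42% of cases. No probe of the locus was saturated, and 29 outlier spots were left out on the array concerned. Feature Extraction gives dim spots a floor value. On the scaled values this floor was lower in NPC (-6.06 and -6.33) than in ESC (-5.75 and -5.86), which alone puts a probe at the floor on all arrays at -0.39.

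Signal over Nanog was lower in NPC. The mean over its 63 probes was -0.62 in ESC 1 and -0.61 in ESC 2, and -2.03 in NPC 1 and -2.28 in NPC 2. Both ESC arrays lay above both NPC arrays, and the ESC arrays lay closer together than the NPC arrays. The difference was -1.54 (SE 0.15), a 2.90-fold higher signal in ESC, with an adjusted p of 0.00598 (limma, Benjamini-Hochberg over 963 windows of the array and the 4 segments of the locus). The median change over all windows of the array was -0.34, and relative to it Nanog changed by -1.20. Without ESC 1 or without ESC 2 the change stayed at -1.54 and -1.53 but no longer passed, with adjusted p = 0.114 and 0.116 in limma. An exact permutation test of 2 against 2 arrays cannot go below p = 0.333.

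Signal over the Nanog interval was still detected in NPC; whether it comes from Nanog, its pseudogenes or the other strand was not tested. The share of Nanog probes well above background was 86.5% ± 1.12 for ESC and 71.4% ± 4.49 for NPC (SD, n = 2 arrays a group). Of the 62 Nanog probes measured on all arrays, 40 were well above background on all 4, 5 in both ESC arrays and no NPC array, and 6 on none. Over all probes of the array these shares were 31.5%, 1.48% and 33.3%. Over the 40 detected everywhere, where no value comes from the floor, the means were 0.79 and 0.68 in ESC and -0.88 and -0.81 in NPC, for a change of -1.58. In 36 of these 40 probes both ESC arrays lay above both NPC arrays, and in 0 was it the reverse. Over all probes of the array, detected or not, these orders were found in 39.5% and 24.9%.

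The fall held along the whole Nanog interval. All 8 bins of 1 kb with at least 3 probes had both ESC arrays above both NPC arrays, with changes from -1.86 to -1.22. The share of 1 kb bins of the array with this order was 47.1%. The window at 122660001-122665000, with 33 probes, read 0.33 and 0.32 in ESC and -1.24 and -1.48 in NPC. Its change of -1.69 (SE 0.15, limma adjusted p = 0.00598) ranked 15th from the lowest of 963 windows. The window at 122655001-122660000, which holds the start of the interval and sequence before it, changed by -1.37 (SE 0.20, limma adjusted p = 0.00940).

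Single Nanog probes passed the test less readily than windows. Of 62 tested, 4 were called lower and 0 higher (limma, Benjamini-Hochberg over 47900 probes), with 33 and 0 before adjustment at p under 0.05. Over the array, 1.58% of the probes were called lower and 10.8% higher, and before adjustment the shares were 6.87% and 17.0%. In 53 of the 62 probes both ESC arrays lay above both NPC arrays, an order found in 39.5% of all probes, and in 0 was it the reverse, against 24.9% of all probes. The largest called fall was at 122661514-122661573, with 0.88 and 0.39 in ESC and -2.34 and -3.90 in NPC, for a change of -3.76 (SE 0.64, limma adjusted p = 0.0383). The probe with the highest ESC mean, at 122663248-122663307, read 3.41 and 3.29 in ESC and 1.61 and 2.16 in NPC. Its change of -1.47 did not pass (limma adjusted p = 0.0833). The NPC arrays lay far apart at 122664339-122664398, which read 3.15 and 3.08 in ESC but 0.40 in NPC 1 and -3.45 in NPC 2.

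**Figure D1:**
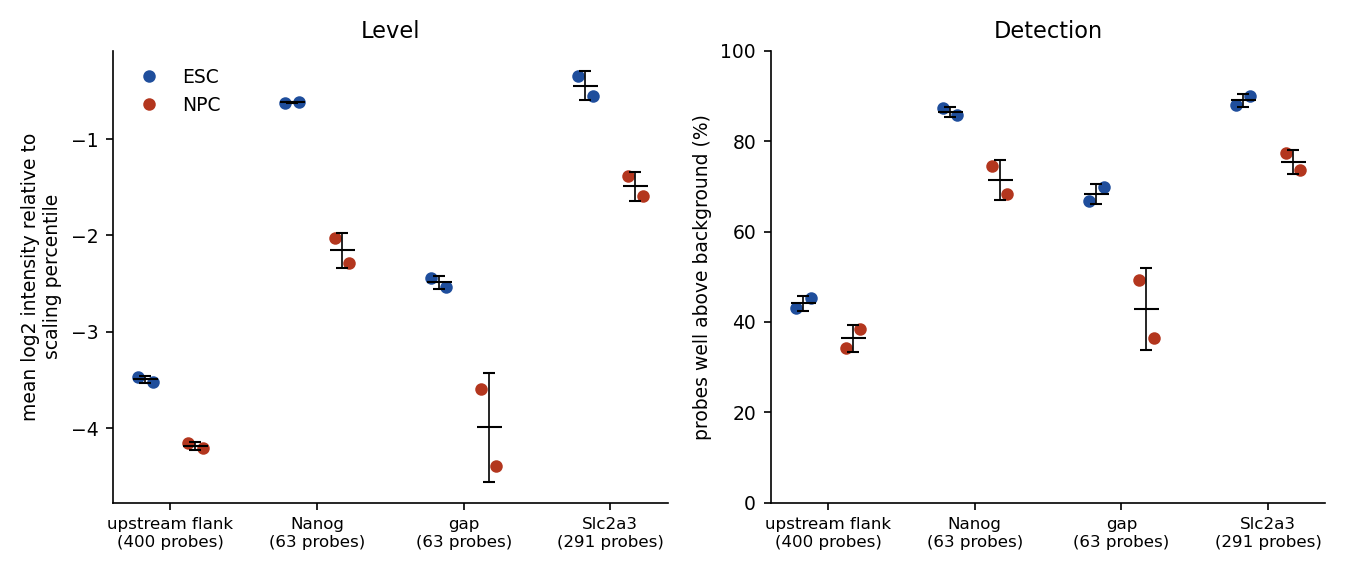
Left, mean log2 intensity relative to the scaling percentile for each segment of the locus and each array; right, percent of probes well above background. Points are single arrays and bars are the mean and SD of 2 arrays; in all 4 segments both ESC arrays lie above both NPC arrays, and the NPC arrays differ most in the gap.

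The gap between the genes fell as well. Its level stood at -2.44 and -2.54 in ESC, -3.59 in NPC 1 and -4.40 in NPC 2. The groups did not overlap, and NPC 2 lay well below NPC 1. The change was -1.51 (SE 0.30, limma adjusted p = 0.0191), and 68.3% ± 2.24 of probes passed the well-above-background mark in ESC against 42.9% ± 8.98 in NPC (SD over 2 arrays). Of the 63 gap probes, 16 lay at the floor on both NPC arrays. Over the 20 well above background on all 4 arrays, the means were -0.58 and -0.70 in ESC and -1.53 and -1.83 in NPC. The change over these 20 was smaller, at -1.04. The gap was also called lower in the 12 alternatives that kept all arrays, with changes from -1.90 to -0.56. One of these kept only probes well above background on both arrays of a group. In the gap 8 probes had this mark in both ESC arrays and no NPC array, and 0 the reverse. That alternative therefore favours a fall and is no independent support. Without ESC 1 or ESC 2 the change of the gap was -1.46 and -1.56 and was no longer called.

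Within the gap, the window next to Nanog fell more than the one after it. The window at 122665001-122670000 read -2.03 and -2.04 in ESC, -3.25 in NPC 1 and -4.33 in NPC 2, a change of -1.75 (SE 0.38, limma adjusted p = 0.0240). The window at 122670001-122675000 changed by -1.04 (SE 0.13, limma adjusted p = 0.00675). Without NPC 2 the 2 windows lay closer together, with changes of -1.21 and -1.03. The 1 kb bin directly after the Nanog interval, from 122665001, read -0.22 and -0.52 in ESC, -2.04 in NPC 1 and -3.91 in NPC 2. Its change of -2.60 rested in part on NPC 2 and was -1.67 without that array, a comparison added after the data were seen. Since the interval ends are approximate, this bin was not assigned to either side by transcript. Of 62 gap probes, 6 were called lower and 0 higher (limma), against 1.58% and 10.8% of all probes. Before adjustment, at p under 0.05, the counts were 20 and 0, beside the same array-wide shares of 6.87% and 17.0%. The largest called fall was at 122665284-122665343, which read -0.19 and 0.03 in ESC and lay at the floor in both NPC arrays (limma adjusted p = 0.0104). With NPC not well above background there, its ESC signal was at least 13.8-fold higher.

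The changes of Nanog and of the gap were compared directly. Within each array, which removes any scaling of the array as a whole, Nanog minus gap came to 1.81 and 1.92 in ESC and 1.56 and 2.12 in NPC. The groups overlapped, and the difference was -0.029 (SE 0.28, exact two-sided permutation p = 1). Nanog minus Slc2a3 came to -0.28 and -0.063 in ESC and -0.64 and -0.69 in NPC, which differ by -0.49 (SE 0.11). The groups did not overlap in this contrast, and its exact permutation p of 0.333 is the smallest that 2 against 2 arrays can give. Slc2a3 minus gap came to 2.10 and 1.99 in ESC and 2.21 and 2.80 in NPC, which differ by 0.46 (SE 0.30, exact permutation p = 0.333). That value was 0.17 without NPC 2, 0.76 without NPC 1 and 0.11 with normexp. Nanog minus gap was also -0.37 with normexp and in the authors' values, 0.25 without NPC 1 and -0.30 without NPC 2, so the processing and single arrays set its sign and size. The subtraction does not remove the floor of dim spots. Over probes well above background on every array, Nanog changed by -1.58 (40 probes) and the gap by -1.04 (20 probes). The difference between these changes was not tested. Keeping probes well above background on both arrays of a group gave 0.11 for Nanog minus gap.

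Over the Slc2a3 interval as a whole signal was lower in NPC, but its windows did not move together. RefSeq gives Slc2a3 a span of 74555 bases on GRCm38, longer than the interval used here, so the interval and its parts do not stand for the whole gene, and signal outside the interval may belong to it. The mean of the 291 probes came to -0.34 and -0.55 in ESC and -1.38 and -1.59 in NPC, which is a change of -1.04 (SE 0.16, limma adjusted p = 0.0102) and a 2.06-fold higher signal in ESC. The groups did not overlap. The share of probes well above background was 89.0% ± 1.46 for ESC and 75.4% ± 2.67 for NPC (SD over 2 arrays). Over the 176 probes well above background on every array, the means were 0.60 and 0.32 in ESC and -0.05 and 0.14 in NPC. The change over these 176 was smaller, at -0.42, and was not tested. In 83 of them both ESC arrays lay above both NPC arrays, and in 36 it was the reverse. The call was lost when the array medians of the control spots named SRN set the scale (-0.52, limma adjusted p = 0.102) and without ESC 1 or ESC 2 (limma adjusted p = 0.117 and 0.116).

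**Figure D2:**
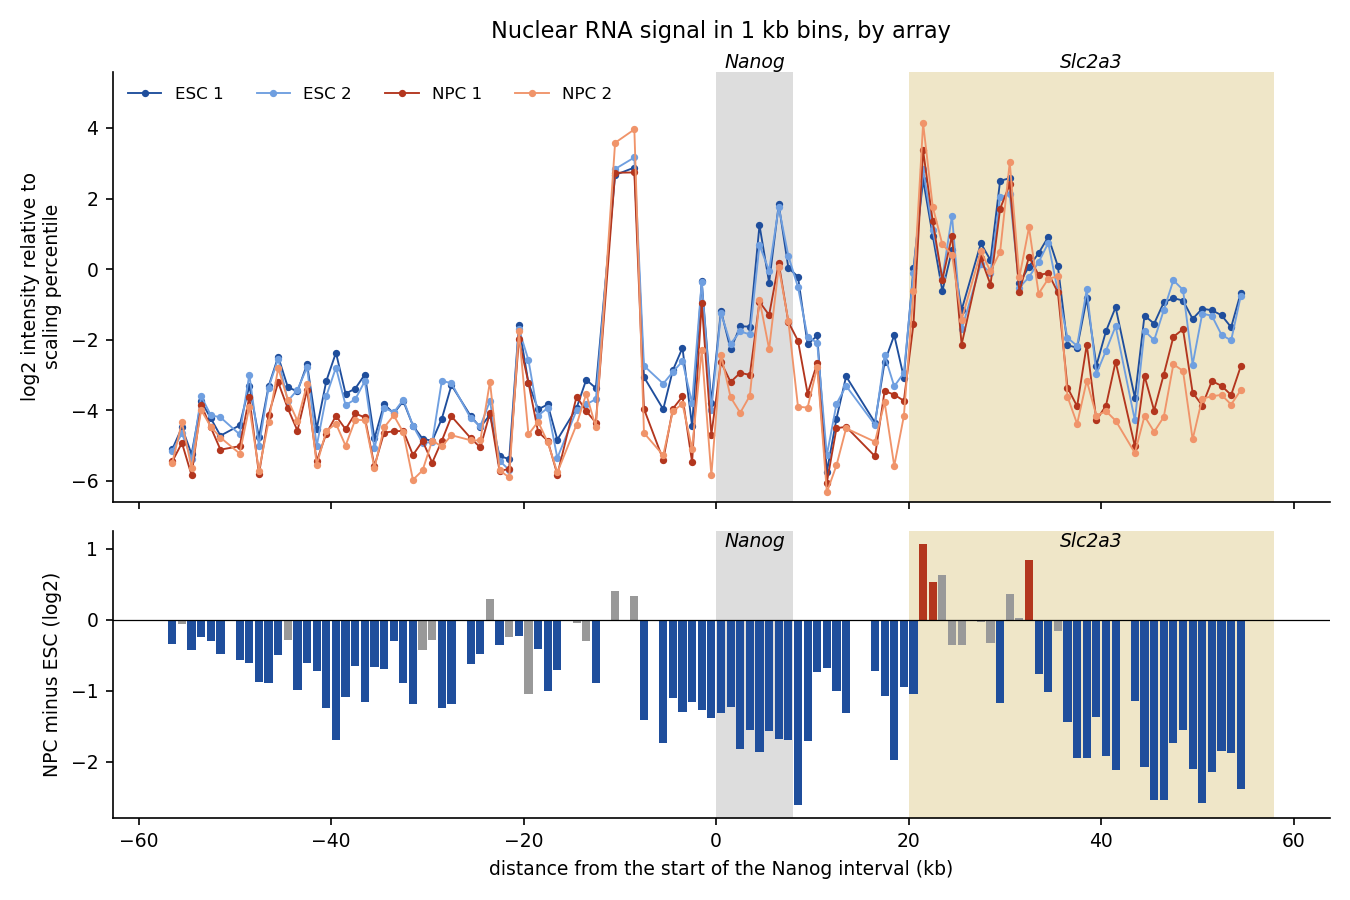
Top, mean log2 intensity of each array in 1 kb bins with at least 3 probes along the locus, against distance from the start of the Nanog interval; bottom, NPC minus ESC in the same bins, blue where both ESC arrays lie above both NPC arrays, red for the reverse and grey where the groups overlap. Shading marks the Nanog and Slc2a3 intervals; the first 16.001 kb of Slc2a3 hold bins on both sides of 0, and every bin shown beyond them is below 0.

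The 5 kb windows separated the interval into 2 stretches. The 3 windows from 122675001 to 122690000 changed by -0.21, -0.15 and -0.18 and were not called (limma adjusted p = 0.247, 0.467 and 0.443). The first of them begins in the gap, where its 1 kb bins changed by -1.97 and -0.94. Its bins in the Slc2a3 interval changed by -1.05, 1.07 and 0.54, so its value does not stand for Slc2a3 alone. The window at 122680001-122685000 read -0.17 and -0.24 in ESC and -0.53 and -0.18 in NPC, and the window at 122685001-122690000 read 1.29 and 0.87 in ESC and 0.89 and 0.92 in NPC. The groups overlapped in both. Across the 12 alternatives that kept all arrays the 3 windows took values on either side of 0, and each was called lower in 1 of them, the percentile over all probes. In the next window, 122690001-122695000, the change was -1.08 (SE 0.15, limma adjusted p = 0.00892).

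The 4 windows from 122695001 on were among the lowest of the array. They changed by -1.84 (SE 0.26), -2.10 (SE 0.32), -1.99 (SE 0.29) and -1.91 (SE 0.23), with limma adjusted p from 0.00675 to 0.00990. In rank from the lowest of 963 windows they stood at 12, 4, 5 and 9. The window at 122700001-122705000 read -1.60 and -1.91 in ESC, -3.44 in NPC 1 and -4.27 in NPC 2. In every one of these windows NPC 2 lay below NPC 1 and both lay below the ESC arrays. These 4 windows were called lower in all 12 alternatives that kept all 4 arrays.

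For a description side by side the interval was divided at 122693001, the bin start that leaves the smallest summed squared deviation of the 1 kb changes around the means of both parts. This division was made after the bins had been seen, and because the same values placed it, the parts were not tested. The first 16.001 kb, with 157 probes, read 0.77 and 0.57 in ESC and 0.36 and 0.56 in NPC, which differ by -0.21. That sign rested on the scaling: it was 0.004 scaled without the largest tile of chromosome 12, 0.071 when centred on the median SRN spot change and 0.31 with the SRN array medians. The remaining 19.5 kb, with 134 probes, read -1.62 and -1.84 in ESC and -3.33 and -3.96 in NPC, which differ by -1.91, which lay between -2.30 and -0.80 under the other scalings. With outlier spots left out, all 134 of these probes were measured on every array, against 138 of the 157 of the first part. The array means of the first part therefore do not all rest on the same probes, which can also hold for its bins and windows. Within each array, the remaining part minus the first part stood at -2.40 and -2.41 in ESC and -3.68 and -4.52 in NPC.

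Detection and bin order are given for the same 2 parts. The changes of these same probes placed the boundary, so these counts are description and no separate support. In the first part 94.3% of probes passed the well-above-background mark in ESC and 92.7% in NPC. In the remaining part the shares were 82.8% and 55.2%. Of the 15 bins of 1 kb in the first part, 4 had both ESC arrays above both NPC arrays, 3 had the reverse and the others overlapped. Over the array these 2 orders were found in 47.1% and 28.2% of the bins. All 18 bins of the remaining part had both ESC arrays on top. Among probes well above background on all 4 arrays the first part changed by 0.14 over 117 probes and the remaining part by -1.52 over 59.

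Some bins of the first part of the Slc2a3 interval, on the side toward Nanog, were higher in NPC. The bin from 122678001, with 15 probes, read 2.53 and 2.83 in ESC and 3.36 and 4.13 in NPC, which differ by 1.07. The bin from 122679001 read 0.94 and 1.096 in ESC and 1.35 and 1.77 in NPC, and the bin from 122689001 read 0.07 and -0.23 in ESC and 0.35 and 1.18 in NPC. The bins were not tested. Single probes gave 2 higher calls in the locus, against 10.8% of all probes of the array. The 2 probes were adjacent, at 122689718-122689777 and 122689778-122689837, and outside the rule for named probes. The first read -0.08 and -0.33 in ESC and 2.05 and 2.60 in NPC, for a rise of 2.53 (SE 0.35, limma adjusted p = 0.0234), and the other rose by 2.03 (limma adjusted p = 0.0366). The 3 Slc2a3 probes with the highest ESC means, at 122686689-122686748, 122678536-122678595 and 122678176-122678235, read above ESC on both NPC arrays, with differences of 0.68, 1.48 and 0.81 that did not pass (limma adjusted p = 0.420, 0.185 and 0.314).

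These 2 higher calls were absent when scaled on all probes, in the authors' values, with a common floor and with the replicate block.

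Lower calls of single probes lay almost all in the remaining part. The changes of these same probes had placed its boundary, so this split is description only. Of 272 Slc2a3 probes tested, 38 (14.0%) were called lower and 2 higher (limma, Benjamini-Hochberg over all probes). Of the 38, 37 were among the 134 of the remaining part and 1 among the 138 of the first part. Over the locus 64 probes (8.09%) were called lower, against 1.58% of all probes called lower and 10.8% higher. Of the 64 probes called lower in the whole locus, 16 were well above background on both NPC arrays, 46 on neither and 2 on 1. Their number moved with the array left out. It was smaller without either ESC array and larger without either NPC array. With a common floor for all arrays, 44 locus probes were called lower. Some of the 46 were well above background on no ESC array either. In 36 of the 64 at least 1 NPC array was at the floor, so the size of their fall is only a bound. For example, the probe at 122694577-122694636 read -1.39 and -0.78 in ESC and was not well above background in NPC, which makes its ESC signal at least 6.86-fold higher (limma adjusted p = 0.0183). A fall measured on both sides was that at 122708805-122708864, named after its values were seen, which read 2.33 and 1.82 in ESC and -0.38 and -0.88 in NPC, for a change of -2.70 (limma adjusted p = 0.0238).

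**Figure D3:**
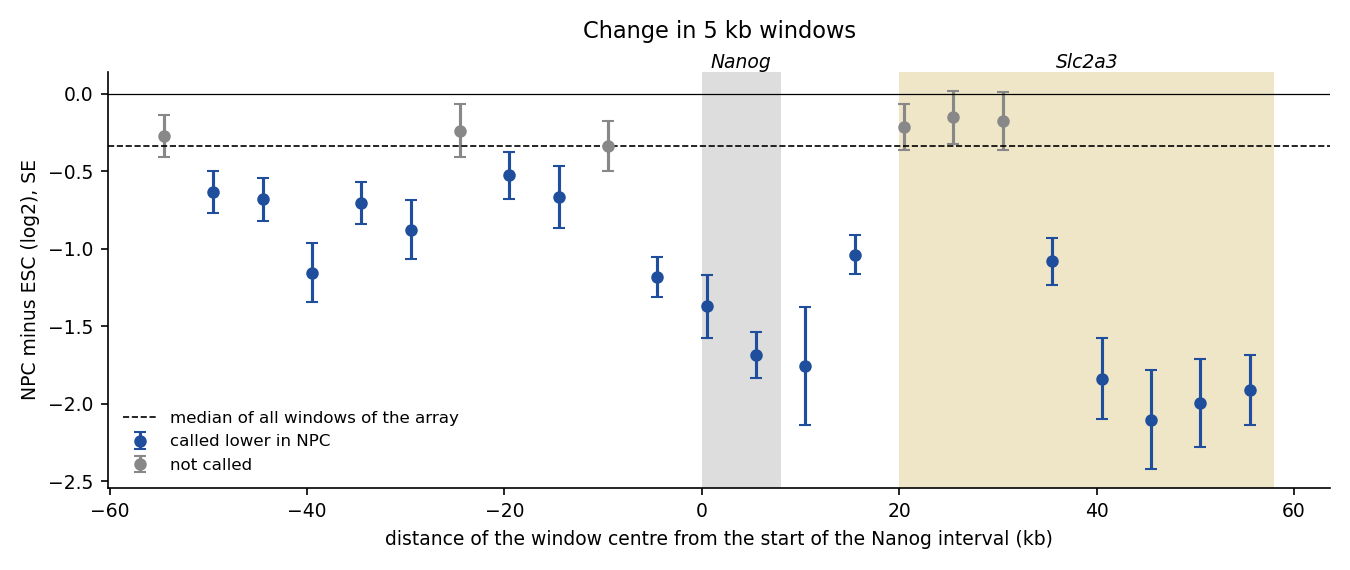
NPC minus ESC (log2) in the 23 windows of 5 kb of the locus, with the SE of the limma fit, against distance of the window centre from the start of the Nanog interval. Blue windows were called lower in NPC, grey ones were not called, and the dashed line is the median change of all windows of the array, -0.34. The 3 windows at the end of the Slc2a3 interval toward Nanog lie above that line between 2 groups of lower windows. The first of the 3 begins in the gap.

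Counted over the locus, 17 of 23 windows were called lower, 0 higher and 6 neither way (limma, Benjamini-Hochberg). Over the array 29.6% of the windows were called lower and 22.0% higher. Before adjustment, at p under 0.05, the locus counts were also 17 and 0. The median change of the locus windows was -0.88, against -0.34 for all windows, and 11 of the 23 changed by less than -1, against 7.48% of all windows. In 21 windows both ESC arrays lay above both NPC arrays, an order found in 57.7% of all windows, in 2 the groups overlapped, and none had the reverse order, against 27.7% of all windows. Both the locus count and the array-wide shares moved with the scaling. Scaled without the chromosome 12 tile, 11 locus windows were lower, against 6.85% of all windows lower and 23.5% higher. Centred on the median SRN spot change, 11 were lower, against 7.48% lower and 25.6% higher over the array. The SRN array medians left 9, against 4.36% lower and 28.7% higher. With the percentile over all probes, all 23 locus windows were lower, against 64.4% lower and 20.1% higher over the array. Without ESC 1, and likewise without ESC 2, limma called 0 of the 963 windows of the array in either direction, and so 0 in the locus, where 12 and 13 were lower at p under 0.05 before adjustment.

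The flank upstream of Nanog was also lower in NPC. Its 400 probes read -3.47 and -3.52 in ESC and -4.16 and -4.21 in NPC, for a change of -0.69 (SE 0.13, limma adjusted p = 0.0162). In this flank 80 probes lay at the floor on all 4 arrays, where the difference is -0.39 by the floors alone. Over the 109 flank probes well above background on all arrays the change was -0.49. The call was lost under 3 scalings, with -0.47 without the chromosome 12 tile, -0.40 when centred on the median SRN spot change and -0.17 with the SRN array medians (limma adjusted p = 0.0687, 0.0791 and 0.735). Of its 395 tested probes, 16 were called lower and 0 higher (limma), against 1.58% and 10.8% of all probes. Before adjustment, at p under 0.05, the counts were 65 and 3, against 6.87% and 17.0% of all probes. Without ESC 1 or ESC 2 the call of the flank was lost too (limma adjusted p = 0.144 and 0.145).

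The window next to Nanog, 122650001-122655000, fell by 1.18 on the log2 scale (SE 0.13, limma adjusted p = 0.00614). It read -3.40 and -3.29 in ESC and -4.53 on both NPC arrays, and was called lower in all 12 alternatives that kept all arrays. In 2 bins of the flank with every probe detected the groups overlapped. The bin from 122646001 read 2.67 and 2.84 in ESC and 2.73 and 3.58 in NPC, and the bin from 122648001 read 2.88 and 3.16 in ESC and 2.74 and 3.96 in NPC. Every probe of both bins was well above background on all 4 arrays. Whether these bins hold the pseudogenes that precede Nanog in the gene order was not tested.

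**Figure D4:**
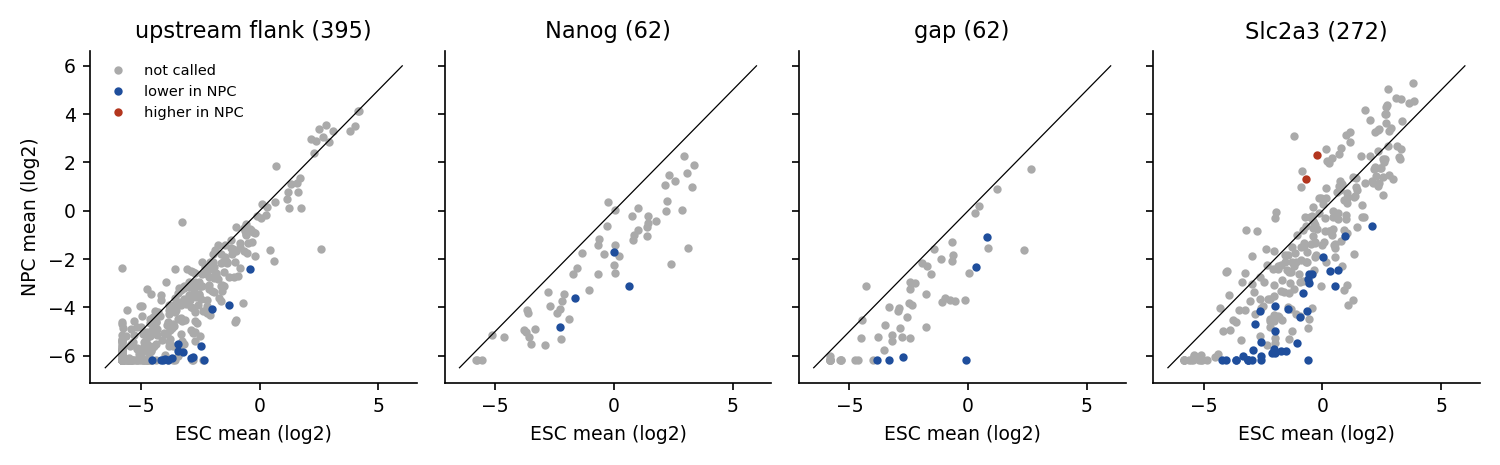
Mean of the 2 NPC arrays against mean of the 2 ESC arrays (log2 relative to the scaling percentile) for the probes of each segment measured on all 4 arrays, number in parentheses; the line marks equal values. Blue probes were called lower in NPC and red probes higher; 4 Nanog probes, 6 gap probes and 38 Slc2a3 probes are blue, and the 2 red probes lie in Slc2a3, while the row of points near -6 is the floor.

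The windows outside the locus whose 4 array values came closest to those of the brightest Nanog and Slc2a3 windows were listed by Euclidean distance over 4 arrays. For Nanog, the window at 122660001-122665000 was nearest to that at chr17:35645001-35650000, which read 0.47 and 0.53 in ESC and -0.99 and -1.98 in NPC, at a distance of 0.61. The next 2 were at 1.12 and 1.15, at chr11:102775001-102780000 and chr6:125100001-125105000, and changed by -0.67 each. For Slc2a3, the window at 122685001-122690000 was nearest to chr6:125110001-125115000, which read 0.99 and 1.33 in ESC and 0.81 and 0.79 in NPC, at a distance of 0.57. No gene was named from these positions. Values were not assigned by name to the other genes that act with Nanog in ESC, because no source used here places them on mm9. Whether a window listed here overlaps such a gene was not examined. The NPC identity of the samples was not checked against neural markers for the same reason.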

How the data were processed

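The deposited scanner files give spot intensity from Agilent Feature Extraction 11.5.1.1, which subtracted background and set a floor under dim spots, with no normalization between arrays, per the file headers; probe positions are on mm9. Per the file headers, other columns mark each spot as above background, saturated or outlying. A deposited table gives the authors' log2 values, a scale judged from the values. The submitters' processing notes name limma; the normalization is not given in the sources used here. In that table the ESC 1 column followed its own scanner file less closely (Spearman 0.865 over probes) than the others did (0.984 to 0.994). The table served as an alternative.

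Intensities were put on the log2 scale and centred on the percentile given above. Probes were averaged per array over segments and over 5 kb windows with at least 5 probes, assigned by probe centre, and fitted with limma 3.58.1 in R 4.3.3 (group as the single term); a call is an adjusted p under 0.05. The fit was tested on simulated data. Alternatives covered scaling, background, floor, dim probes, averaging, prior, window size, block and left-out arrays. The files hold no mean spot signal, so normexp (offset 50) used median signals. All arrays share 1 slide and scan. Named windows and probes followed fixed rules: all 5 kb windows, and per segment the 3 probes brightest in ESC and the 3 lowest among those called. The 2 higher calls and 3 further probes, named after their values were seen, lie outside these rules. The locus, intervals and rules were chosen with earlier results of these data known. Figures were drawn with matplotlib 3.10.9.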

Additional observations from a re-analysis of the deposited data

How the results depend on the processing

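Of the changes of the 4 segments, those of Nanog (from -1.93 to -0.94) and the gap (from -1.90 to -0.56) kept direction and call in the 12 alternatives with all arrays. The alternative without dim probes kept those well above background on both arrays of a group. Over the locus 59 probes had this mark in both ESC arrays and no NPC array, and 3 the reverse. It is therefore no independent support for a fall. Slc2a3 lost its call in 1 (-0.52 with the SRN array medians). The flank lost it in 3: -0.47 without the chromosome 12 tile, -0.40 when centred on the median SRN spot change and -0.17 with the SRN array medians. Lower windows numbered 11, 11 and 9 under these scalings. At 2 kb, 35 of 56 locus windows were lower, against 14.7% of the 2272 windows of the array. At 10 kb, 11 of 12 were lower, against 42.8% of 505. Higher probes numbered 0 with the percentile over all probes, the authors' values and a common floor, and 4 with SRN array medians and normexp. Nanog minus gap turned to 0.11 when dim probes were left out and was -0.37 with normexp and with the authors' values. Slc2a3 minus gap ran from 0.11 (normexp) to 0.79. Nanog minus Slc2a3 was -0.68 there and -0.89 with the authors' values. The cause was not tested. A flank downstream of Slc2a3 had no probes and gave no value.

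Leaving out 1 array, with the lone array taken to vary like the other group, gave from -1.66 to -1.41 for Nanog, -1.91 to -1.10 for the gap, -1.15 to -0.94 for Slc2a3 and -0.72 to -0.66 for the flank. Lower windows ran from 0 to 18, lower probes from 22 to 160 and higher probes from 1 to 28. Nanog minus gap ran from -0.30 to 0.25 and Slc2a3 minus gap from 0.17 to 0.76.

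With the replicate block 38 probes were lower and 0 higher; it changed no call of a segment. Same-numbered arrays deviated together with a correlation of 0.037 over 963 windows and 0.26 over the 23 of the locus, and the labels do not say that numbers pair samples.

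The number of arrays limits the precision, and dim probes in NPC give only bounds.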

Other observations

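Within bright stretches, some single probes lay at the NPC floor. The probe at 122685156-122685215, in the first part of Slc2a3, read -0.45 and -0.75 in ESC and was at the floor on both NPC arrays, so that its ESC signal was at least 9.60-fold higher (limma adjusted p = 0.0104). The next probe, at 122685216-122685275, read 0.53 and -0.18 in ESC and 0.16 and 0.91 in NPC. Beyond the end of the Nanog interval, the probe at 122665584-122665643 read -0.39 and 0.11 in ESC, -1.08 in NPC 1 and the floor of -6.33 in NPC 2. These probes, apart from the first, were named after their values were seen.

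Rank order over the 791 probes of the locus measured on all arrays differed between the NPC arrays more than between the ESC arrays. The Spearman coefficient was 0.928 between ESC 1 and ESC 2 and 0.853 between NPC 1 and NPC 2, and between groups it ran from 0.783 for ESC 1 with NPC 2 to 0.908 for ESC 2 with NPC 1. Probes share arrays and neighbouring sequence and are not independent.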
